A study of Homo sapiens with 9 samples.

Results

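RNA-seq counts of 8 genes that encode enzymes of the tricarboxylic acid (TCA) cycle and of glutamine metabolism were followed in Hep3B cells exposed to low oxygen and to 32-134D, a compound the study developed as an inhibitor of hypoxia-inducible factors (HIFs). The 8 genes, CS, IDH1, IDH2, IDH3A, OGDH, FH, GLS2 and GLUL, were selected by symbol from a table that lists 60683 genes. All 8 were among the 22672 genes with at least 10 counts summed over the libraries, and all 8 were tested.

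The TCA cycle burns acetyl units in the mitochondrial matrix. Citrate synthase (CS) joins acetyl-CoA to oxaloacetate, isocitrate dehydrogenases convert isocitrate to 2-oxoglutarate, the OGDH complex carries 2-oxoglutarate on to succinyl-CoA, and fumarate hydratase (FH) makes malate from fumarate. Glutamine feeds the cycle once a glutaminase, such as GLS2, has released glutamate from it, and glutamine synthetase (GLUL) runs the opposite reaction. In hypoxic cells HIF-1 is known to divert pyruvate from the cycle by inducing PDK1, and 2-oxoglutarate made from glutamine can then be carboxylated back to citrate by the NADP-dependent enzymes IDH1 (cytosol) and IDH2 (mitochondria).

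The study compared 3 groups of 3 cultures, each exposed for 24 hours: vehicle (DMSO) at 20% O2, vehicle at 1% O2, and 32-134D at 1% O2. Hep3B is a human liver cancer line, so every library came from the same line, and the labels describe the replicates as biological replicates seeded in 6-well plates. There was no library with 32-134D at 20% O2, so an action of the compound that does not depend on oxygen cannot be told apart from one on the hypoxic response, and the sample labels give no dose. The question was which of these mRNAs differed between hypoxic and normoxic cells, and what their levels were when the compound was present in hypoxia.

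Library totals ranged from 6013980 to 40549699 counts, with the shallowest library in the vehicle group at 20% O2. Replicate 3 of 32-134D stood apart: its chi-square per degree of freedom was 29.7 and 26.3 against replicates 1 and 2, which differed from each other by 1.87, and the log2 differences of the members with 32-134D are given with and without it. The 5 hypoxia check genes CA9, VEGFA, EGLN3, PDK1 and LDHA all rose at 1% O2 and all fell with 32-134D in the edgeR test. Levels are in CPM, the reads of a gene scaled to a library of fixed size. CA9, for example, averaged 27.9 CPM at 20% O2, 580 at 1% O2 and 56.6 with 32-134D. All 7 hepatocyte markers were detected, and their summed level was 16308 to 17566 CPM at 20% O2, 11258 to 14112 at 1% O2, and 10777 to 16194 with 32-134D, the lowest being replicate 3. APOB, the apolipoprotein of very low density lipoproteins, had means of 4487 CPM at 20% O2, 406 at 1% O2 and 3520 with 32-134D, and ALB, serum albumin, had 9284, 9536 and 8116 CPM. In hypoxia APOB and AFP were called lower and the other 5 markers were not called (edgeR), and with 32-134D against vehicle at 1% O2 APOB was called higher and TTR and FGB lower. Of 7 markers of other cell types KRT5 had no count, and their summed level was 3.77 to 6.02, 4.90 to 5.22 and 8.31 to 15.04 CPM in the same order. LUM measured 5.64, 6.60 and 12.9 CPM with 32-134D and 3.71, 3.72 and 3.84 CPM in vehicle at 1% O2. Of these markers 4 were tested. In hypoxia PECAM1 and COL1A2 were called lower, and with 32-134D against vehicle at 1% O2 all but CD68 were called higher. PECAM1 and COL1A2 were near the floor, with means of 0.21 and 0.38 CPM in vehicle at 1% O2 and 0.86 and 0.89 with 32-134D. The part of these markers in the results below was not tested, and in bulk cultures fewer cells of a type and less RNA per cell cannot be told apart.

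HIFs bind DNA at sites that hold the letters ACGTG or GCGTG, and the promoters of the members that rose in hypoxia are shown for that reason, with FH, a member that did not pass the test and holds the same letters, beside them. The sequences run from 250 bases before to 50 bases after the RefSeq start site on GRCh38.p14, in the direction of transcription, and the capitals mark GCGTG, or CACGC where it lies on the opposite strand. IDH3A is shown from chr15:78149112-78149411 on the plus strand, IDH2 from chr15:90100572-90100871 on the minus strand and FH from chr1:241519706-241520005 on the minus strand.
IDH3A: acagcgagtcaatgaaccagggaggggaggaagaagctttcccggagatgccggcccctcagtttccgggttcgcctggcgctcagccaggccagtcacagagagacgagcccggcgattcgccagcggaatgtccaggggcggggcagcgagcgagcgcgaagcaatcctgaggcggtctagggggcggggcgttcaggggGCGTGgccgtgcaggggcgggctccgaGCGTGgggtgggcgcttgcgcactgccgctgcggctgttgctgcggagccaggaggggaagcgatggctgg
IDH2: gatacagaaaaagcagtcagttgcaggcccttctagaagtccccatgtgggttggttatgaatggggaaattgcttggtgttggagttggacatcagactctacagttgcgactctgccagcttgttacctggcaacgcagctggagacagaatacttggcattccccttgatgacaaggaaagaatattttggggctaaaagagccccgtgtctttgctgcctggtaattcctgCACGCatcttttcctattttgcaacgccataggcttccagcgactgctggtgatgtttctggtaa
FH: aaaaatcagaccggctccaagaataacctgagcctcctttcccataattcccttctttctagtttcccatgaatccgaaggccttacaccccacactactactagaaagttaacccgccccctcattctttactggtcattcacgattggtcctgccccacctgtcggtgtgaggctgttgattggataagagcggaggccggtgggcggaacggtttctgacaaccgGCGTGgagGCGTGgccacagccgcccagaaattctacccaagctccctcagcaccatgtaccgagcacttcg
In IDH3A the matches began 48 and 21 bases before the start site, which lies 17864 bases inside the outermost GENCODE start of the gene and within 100 bases of 18 of its 24 GENCODE transcript starts, and in FH 22 and 14 bases before it. In IDH2 the single match lay 15 bases before a start site that is 1883 bases inside the outermost GENCODE start of the gene and within 100 bases of 1 of its 4 transcript starts. Neither window covers the outermost start. A promoter sequence was found for 7 of the 8 members, all but OGDH. At least 1 match to either core was present for IDH1, IDH2, IDH3A, FH and GLUL, and none for CS and GLS2. IDH1 and GLUL had more than 1 promoter window each, and each of these windows held a match. The shares that follow count windows and not genes. Over all 35116 promoters of the same length, searched on both strands, 21.4% held ACGTG, 36.5% held GCGTG and 48.45% held either, so a match in these letters is common and describes the sequence only.

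At 1% O2, 3 of the 8 members passed the test against 20% O2 (edgeR FDR below 0.05 and a fold change above 1.5): IDH2 and IDH3A rose and OGDH fell. Over all genes tested, 39.7% passed (19.5% of all genes as higher and 20.3% as lower), so the members' share was close to that background. On the FDR alone, 5 members passed in hypoxia, 3 higher and 2 lower, where 53.5% of all genes did (27.9% higher, 25.6% lower). When vehicle at 1% O2 was compared with 32-134D, 2 members passed: IDH2 fell and OGDH rose, beside 29.9% of all genes (16.2% higher, 13.7% lower). On the FDR alone 5 members passed, 1 higher and 4 lower, beside 47.5% of all genes (21.9% higher, 25.5% lower). The comparisons share the vehicle libraries at 1% O2, and their values are therefore set side by side and not related to each other. With some other processing fewer members passed in hypoxia. With total library size 1 passed, beside 3081 of all 22672 genes as higher and 5848 as lower. With upper quartile scaling 1 passed, beside 3187 and 5733. With 10 counts required in every library 1 passed, beside 2824 and 3347 of 12912 genes. With DESeq2 2 passed, beside 3855 and 4450 of 22672. In each of these the members' share was below that of all genes.

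**Figure D1:**
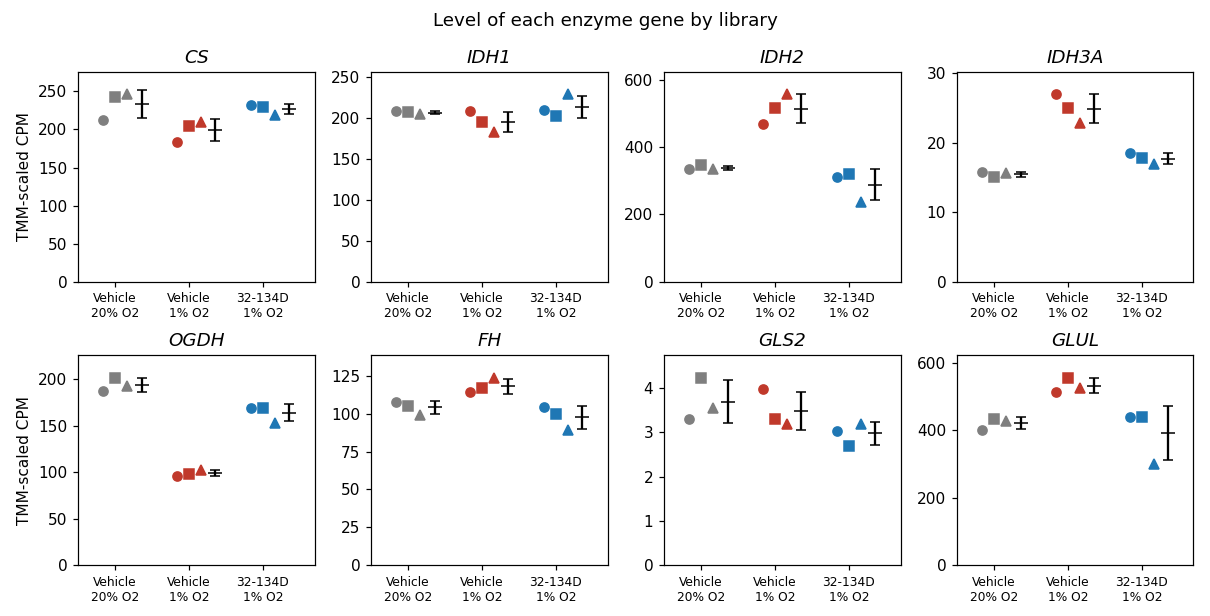
Level of each of the 8 enzyme genes in every library, in TMM-scaled CPM on axes that start at 0 (circle, square and triangle are replicates 1, 2 and 3; the black dash and bar are the mean and SD of 3 libraries). OGDH was lowest in the 3 vehicle libraries at 1% O2 (96.1 to 102 CPM), where IDH2 was highest (469 to 556 CPM).

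OGDH, the catalytic (E1) subunit that commits 2-oxoglutarate to succinyl-CoA, showed the largest change of the 8 in hypoxia. The gene lies on chromosome 7 at 44606572 to 44709066, plus strand (GENCODE version 29, GRCh38, as for all positions). It measured 187, 202 and 192 CPM at 20% O2, 96.1, 97.8 and 102 CPM at 1% O2, and 169, 169 and 153 CPM with 32-134D. The 3 groups did not overlap: hypoxic vehicle cells were lowest and normoxic cells highest, with the 32-134D cultures between them but nearer to normoxia. The level at 1% O2 was 1.96-fold lower than at 20% O2 (log2 fold change -0.97, SE 0.07, 95% interval -1.12 to -0.82, edgeR FDR 2.32e-08). With 32-134D it was 1.66-fold higher than in vehicle at 1% O2 (log2 0.73, SE 0.07, 95% interval 0.58 to 0.88, edgeR FDR 7.96e-07), and 0.78 on the log2 scale without replicate 3. Both calls were kept in every alternative except a fold threshold of 2. Against 20% O2, the 32-134D cultures differed by -0.24 (SE 0.07, edgeR FDR 0.0390), which is under the fold threshold, and by -0.20 without replicate 3 (edgeR FDR 0.0632).

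IDH2, the mitochondrial NADP-dependent isocitrate dehydrogenase, moved opposite to OGDH. It lies on chromosome 15 at 90083045 to 90102504, minus strand. Its level was 334, 345 and 334 CPM at 20% O2, 469, 515 and 556 CPM at 1% O2, and 309.5, 318 and 236 CPM with 32-134D. Every hypoxic vehicle culture was above every other culture, and the 32-134D cultures lay below all 3 normoxic ones, replicate 3 by the most. In hypoxia the log2 fold change was 0.61 (SE 0.10, 95% interval 0.39 to 0.82, edgeR FDR 1.27e-04), a 1.52-fold rise that only just passed the fold threshold. The call was lost without replicate 1 of the vehicle at 20% O2 (0.54) and without replicate 3 of the vehicle at 1% O2 (0.54). It was also lost with DESeq2 (0.56), with other scalings, with 10 counts required in every library (0.49) and when thinned to the smallest library (0.54). The FDR stayed below 0.05 in each. With 32-134D IDH2 fell by 0.83 on the log2 scale from vehicle at 1% O2 (SE 0.10, 95% interval -1.05 to -0.62, edgeR FDR 9.07e-06), which is 1.78-fold, and by 0.71 without replicate 3, still past both thresholds. Against 20% O2 the difference was -0.23 (95% interval -0.45 to -0.01, edgeR FDR 0.179) and -0.11 without replicate 3.

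IDH3A encodes the catalytic alpha subunit of the NAD-dependent isocitrate dehydrogenase that serves the forward cycle, and lies on chromosome 15 at 78131498 to 78171949, plus strand. Its level was 15.7, 15.1 and 15.6 CPM at 20% O2, 26.9, 24.9 and 22.8 CPM at 1% O2, and 18.4, 17.8 and 16.9 CPM with 32-134D. None of the groups overlapped, with normoxic cultures lowest and the 32-134D cultures between the vehicle groups. IDH3A rose 1.61-fold in hypoxia (log2 0.68, SE 0.10, 95% interval 0.47 to 0.89, edgeR FDR 2.74e-05), and this call was lost when libraries were scaled by total counts (0.47) or by the upper quartile (0.49) and when 10 counts were required in every library (0.58). With 32-134D the difference from vehicle at 1% O2 was -0.49 (SE 0.09, 95% interval -0.69 to -0.29, edgeR FDR 4.86e-04), or 1.40-fold, short of the fold threshold. Without replicate 3 it was -0.46. Against 20% O2 the difference was 0.19 (95% interval -0.02 to 0.41, edgeR FDR 0.245) and 0.22 without that library. IDH3A shares 38.2% of its annotated exon bases with ACSBG1 on the opposite strand, and ACSBG1 had 36 counts in the 9 libraries together. The strand setting of the counting was not given, so whether reads from this overlap were counted for either gene cannot be told.

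IDH1, the cytosolic NADP-dependent partner of IDH2 (chromosome 2, 208236227 to 208266074, minus strand), stayed within a narrow range in all libraries. It measured 208, 207 and 205 CPM at 20% O2, 208, 194 and 183 CPM at 1% O2, and 209, 202 and 229 CPM with 32-134D. Groups overlapped in every comparison. The log2 difference was -0.08 in hypoxia (95% interval -0.24 to 0.07, edgeR FDR 0.368), 0.13 with 32-134D against vehicle at 1% O2 (95% interval -0.03 to 0.28, edgeR FDR 0.164) and 0.05 against 20% O2 (95% interval -0.11 to 0.20, edgeR FDR 0.760). Without replicate 3 the last 2 were 0.08 and -0.0076. The intervals of all 3 differences exclude a 1.5-fold difference in either direction.

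CS, the first enzyme of the cycle (chromosome 12, 56271699 to 56300392, minus strand), measured 213, 242 and 246 CPM at 20% O2, 183, 204 and 209.8 CPM at 1% O2, and 232, 229.9 and 219 CPM with 32-134D. The hypoxic vehicle cultures lay below all others, by a small margin. The log2 difference in hypoxia was -0.23 (SE 0.08, 95% interval -0.40 to -0.06, edgeR FDR 0.0209), under the fold threshold. With 32-134D it was 0.19 against vehicle at 1% O2 (95% interval 0.02 to 0.35, edgeR FDR 0.0561) and 0.22 without replicate 3, and against 20% O2 it was -0.04 (95% interval -0.21 to 0.12, edgeR FDR 0.806) and -0.02 without that library.

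FH, which also acts as a tumour suppressor in hereditary leiomyomatosis, lies on chromosome 1 at 241497603 to 241519761, minus strand. Its level was 108, 105 and 99.2 CPM at 20% O2, 114, 117 and 124 CPM at 1% O2, and 104, 99.5 and 89.2 CPM with 32-134D. The hypoxic vehicle cultures were again separate from the others, here as the highest. The log2 difference was 0.18 in hypoxia (SE 0.08, 95% interval 0.02 to 0.35, edgeR FDR 0.0537) and did not pass, and its sign turned to -0.030 when libraries were scaled by total counts and to -0.0087 with the upper quartile. With 32-134D it was -0.28 against vehicle at 1% O2 (SE 0.08, 95% interval -0.44 to -0.11, edgeR FDR 0.00724), which is 1.21-fold, and -0.21 without replicate 3. Against 20% O2 it was -0.09 (95% interval -0.25 to 0.07, edgeR FDR 0.521) and -0.03 without that library.

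GLUL, glutamine synthetase, makes glutamine from glutamate and ammonia and in liver marks the hepatocytes around the central vein. It lies on chromosome 1 at 182381704 to 182392206, minus strand. Its level was 400.1, 434 and 428 CPM at 20% O2, 514, 556 and 526 CPM at 1% O2, and 439, 438 and 300.3 CPM with 32-134D. All 3 hypoxic vehicle cultures were above the rest, while replicates 1 and 2 with 32-134D sat just above the normoxic range and replicate 3 well below it. The log2 difference in hypoxia was 0.34 (SE 0.11, 95% interval 0.09 to 0.58, edgeR FDR 0.0220), or 1.26-fold, under the fold threshold. With 32-134D it was -0.44 against vehicle at 1% O2 (SE 0.11, 95% interval -0.68 to -0.19, edgeR FDR 0.00542), and -0.28 without replicate 3, the library in which ALB and other hepatocyte markers were also lowest. Against 20% O2 it was -0.10 (95% interval -0.35 to 0.15, edgeR FDR 0.660), with the sign turning to 0.06 without replicate 3.

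GLS2, the liver-type glutaminase and a known p53 target in other cells, was the least counted member. It lies on chromosome 12 at 56470944 to 56488414, minus strand, and had 27 to 150 counts in a library. Its level was 3.30, 4.24 and 3.56 CPM at 20% O2, 3.98, 3.30 and 3.18 CPM at 1% O2, and 3.03, 2.69 and 3.20 CPM with 32-134D. The vehicle groups overlapped, and all 3 libraries with 32-134D were below the lowest library at 20% O2. The log2 difference was -0.05 in hypoxia (95% interval -0.43 to 0.33, edgeR FDR 0.966), -0.24 with 32-134D against vehicle at 1% O2 (95% interval -0.60 to 0.12, edgeR FDR 0.270) and -0.29 against 20% O2 (95% interval -0.67 to 0.10, edgeR FDR 0.362). The last 2 intervals include a 1.5-fold fall, so a fall of that size was not excluded. Without 32-134D replicate 3 they were -0.29 and -0.32. GLS2 shares 77.1% of its exon bases with SPRYD4 on the opposite strand, whose log2 difference was -0.94 in hypoxia and 0.60 with 32-134D against vehicle at 1% O2. The strand setting of the counting was not given in the sources used here, so reads from this overlap cannot be told apart.

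**Figure D2:**
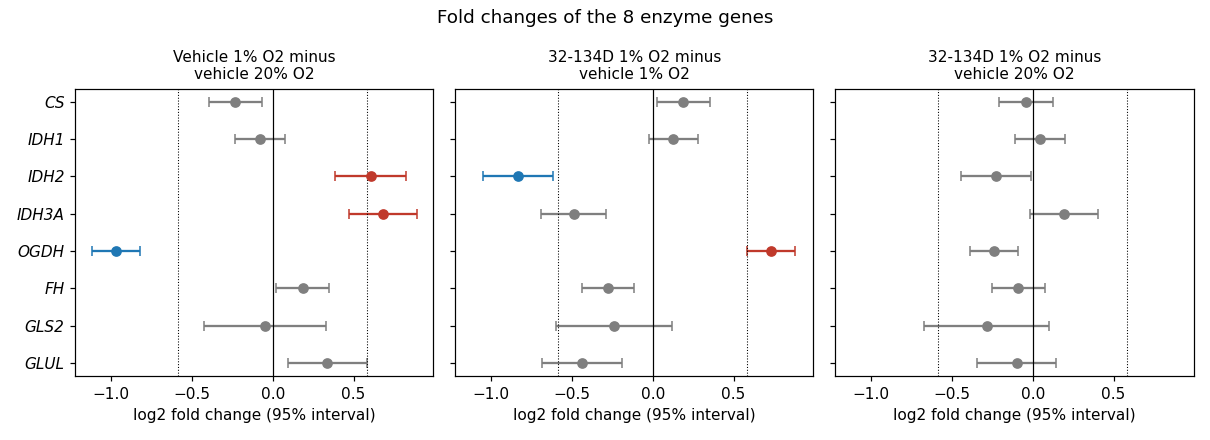
Log2 fold changes of the 8 members with 95% intervals from the edgeR fit in the 3 comparisons (red, called higher; blue, called lower; grey, not called; dotted lines, 1.5-fold). OGDH and IDH2 were called in both comparisons that include vehicle at 1% O2, and no member was called between 32-134D at 1% O2 and vehicle at 20% O2.

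Between 32-134D at 1% O2 and vehicle at 20% O2, 0 of the 8 members passed the edgeR test, where 3.52% of all genes did, and DESeq2 also called 0. At an unadjusted p below 0.05 there were 2, IDH2 and OGDH, both lower with the compound. The share of all genes at that unadjusted threshold is not given here, so this count has no background beside it. On the edgeR FDR alone there was 1, OGDH, beside 10.3% of all genes (7.81% higher, 2.44% lower). The 8 log2 differences ran from -0.29 (GLS2) to 0.19 (IDH3A), with a median of -0.09 against 0.00 over all genes tested. By ranges alone, the libraries of the groups did not overlap for 6 members in hypoxia (60.5% of all genes, 32.3% higher and 28.1% lower). They did not overlap for 6 with 32-134D against vehicle at 1% O2 (56.1%, 25.4% higher and 30.8% lower) and for 4 against 20% O2 (29.8%, 17.0% higher and 12.8% lower). In hypoxia these were IDH2, IDH3A, FH and GLUL as higher and CS and OGDH as lower, and with 32-134D against vehicle at 1% O2 they were CS and OGDH as higher and IDH2, IDH3A, FH and GLUL as lower. Against 20% O2 they were IDH3A as higher and IDH2, OGDH and GLS2 as lower. The medians of the members were 0.07 in hypoxia and -0.26 with 32-134D against vehicle at 1% O2, where all genes had 0.00 and -0.01.

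Per kilobase of annotated exon, IDH2 was the most abundant member in every group, at 119.98 ± 2.36 CPM per kilobase at 20% O2, 182 ± 15.5 at 1% O2 and 102 ± 16.1 with 32-134D (SD, n = 3). At 20% O2 it was followed by FH (48.6), GLUL (46.6) and IDH1 (43.7), of which FH and GLUL overlapped in range, and by OGDH (37.2) and CS (36.5), which also overlapped. IDH3A (2.26) and GLS2 (0.893) came last by a wide gap. At 1% O2 the order among the middle members was GLUL (58.9), FH (55.2), IDH1 (41.3), CS (31.1) and OGDH (18.9), so OGDH came to lie below CS without overlap. With 32-134D the ranges of FH (45.6), IDH1 (45.2), GLUL (43.4) and CS (35.5) overlapped each with the next, and OGDH (31.4) again followed CS. The place of GLUL in this order and its overlap with CS rested on 32-134D replicate 3. GLUL was 33.2 in that library, against a range of 34.2 to 36.3 for CS, and reached 48.6 in the group. The place of GLS2 depends on the length used: over exon bases shared with no other gene it had 5.18 CPM per kilobase against 3.70 for IDH3A at 20% O2, 4.88 against 5.96 at 1% O2, and 4.17 against 4.24 with 32-134D. This length was chosen after seeing the data.

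Ratios between partner genes within a library do not depend on scaling between libraries. For 5 pairs in 3 comparisons, 15 in all, an exact two-sided permutation test over samples was run, which with 3 against 3 cannot give a p below 0.1 (0.107 after Benjamini-Hochberg adjustment). IDH2 relative to IDH1, per kilobase on the log2 scale, was 1.43, 1.49 and 1.45 at 20% O2, 1.92, 2.15 and 2.35 at 1% O2, and 1.31, 1.40 and 0.79 with 32-134D. The mitochondrial form was thus 2.74 times the cytosolic one in normoxia, 4.41 times in hypoxia and 2.25 times with 32-134D, with no overlap between any groups (exact p = 0.1 in each comparison). Without 32-134D replicate 3 the log2 difference from vehicle at 1% O2 was -0.78 instead of -0.97, and from 20% O2 it was -0.10 instead of -0.29.

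OGDH relative to DLST, the E2 subunit of the same complex, averaged 0.98 at 20% O2, -0.50 at 1% O2 and 0.66 with 32-134D on the log2 scale. In linear terms OGDH went from 1.97 times DLST in normoxia to 0.707 times in hypoxia and was 1.58 times DLST with the compound (exact p = 0.1 in each comparison, no overlap). DLST itself had a log2 difference of 0.50 in hypoxia (edgeR FDR 1.06e-05, 1.42-fold) and -0.43 with 32-134D against vehicle at 1% O2 (edgeR FDR 5.88e-05), both under the fold threshold and opposite in sign to OGDH, the second being -0.42 without 32-134D replicate 3. IDH3A relative to IDH3G, a regulatory subunit of the same enzyme, averaged -2.17, -0.88 and -1.77 in the order 20% O2, 1% O2 and 32-134D, and relative to IDH3B it averaged -4.88, -4.08 and -4.46 (exact p = 0.1 in each comparison, no overlap). Without 32-134D replicate 3, the log2 ratio of OGDH to DLST with the compound differed by 1.20 from vehicle at 1% O2 and by -0.28 from 20% O2, in place of 1.16 and -0.32. That of IDH3A to IDH3G differed by -0.86 and 0.43 in place of -0.89 and 0.40, and that of IDH3A to IDH3B by -0.39 and 0.41 in place of -0.38 and 0.42. IDH3A was therefore 0.223 times IDH3G per kilobase in normoxia and 0.542 times in hypoxia. Exon lengths here count every annotated exon, so these ratios are not subunit stoichiometries.

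FH relative to CS averaged 0.42 at 20% O2, 0.83 at 1% O2 and 0.36 with 32-134D on the log2 scale, and the groups at 20% O2 and with 32-134D overlapped (exact p = 0.8). In linear terms FH was 1.33 times CS in normoxia, 1.78 times in hypoxia and 1.28 times with 32-134D, per kilobase. Without 32-134D replicate 3 the log2 ratio with the compound differed by -0.43 from vehicle at 1% O2 and by -0.017 from 20% O2, in place of -0.47 and -0.06.

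**Figure D3:**
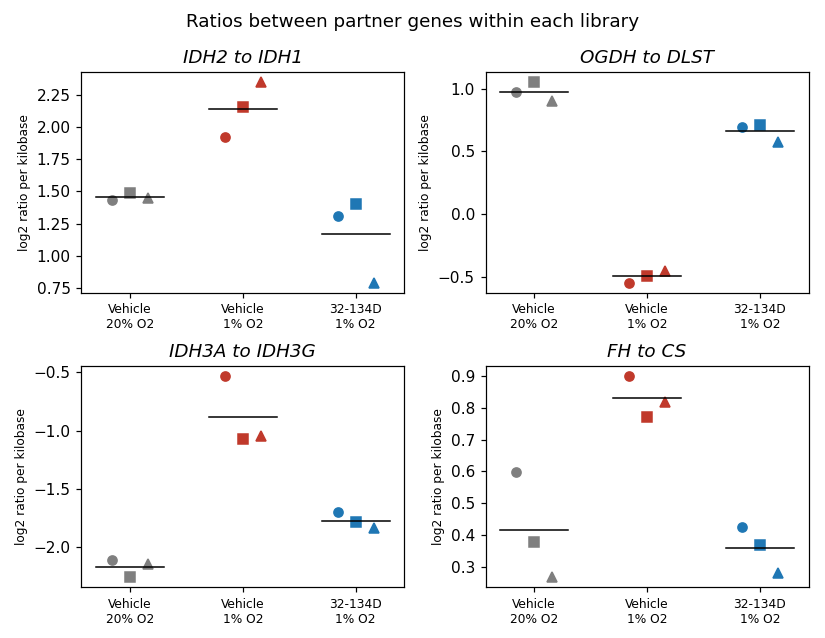
Log2 ratio per kilobase of 4 gene pairs in every library (circle, square and triangle are replicates 1, 2 and 3; the line is the mean of 3; each panel has its own axis, which does not start at 0). OGDH to DLST was below 0 in the 3 vehicle libraries at 1% O2 and above 0 in the other 6.

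Of the 13 other genes of the mitochondrial cycle, 3 passed in hypoxia, beside 39.7% of all genes. SDHD, a membrane anchor of succinate dehydrogenase, rose by 0.93 on the log2 scale (edgeR FDR 2.36e-05). SUCLG2, the GTP-specific beta subunit of succinyl-CoA synthetase, fell by 0.85 (edgeR FDR 1.75e-06) and IDH3G fell by 0.59 (edgeR FDR 2.53e-04). The IDH3G call rests on a 1.51-fold change and was lost without replicate 2 of the vehicle at 20% O2 (-0.57) and without replicate 1 of the vehicle at 1% O2 (-0.48). So within the NAD-dependent isocitrate dehydrogenase the catalytic IDH3A was higher and IDH3G lower at 1% O2, while IDH3B had -0.11 (edgeR FDR 0.200). SDHB (0.58, 1.499-fold) and SDHA (0.55), named here after their values were seen, lay just under the fold threshold with edgeR FDRs of 8.39e-06 and 2.63e-05. The list's median was 0.16, against 0.00 over all genes. With 32-134D against vehicle at 1% O2, 1 of the 13 passed, beside 29.9% of all genes: SUCLG2 rose by 0.69 (edgeR FDR 1.77e-05, 0.74 without replicate 3). SDHD had -0.57 (edgeR FDR 0.00147, -0.50 without replicate 3), just under the fold threshold, and passed without replicate 1 of the vehicle at 1% O2 (-0.61) and without 32-134D replicate 2 (-0.59). The list's median was -0.25 against -0.01 over all genes. Against 20% O2 the edgeR test called 0 of the 13, beside 3.52% of all genes. At an unadjusted p below 0.05 there were 3, and the share of all genes at that threshold is not given here. DESeq2 also called 0 of the 13.

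**Figure D4:**
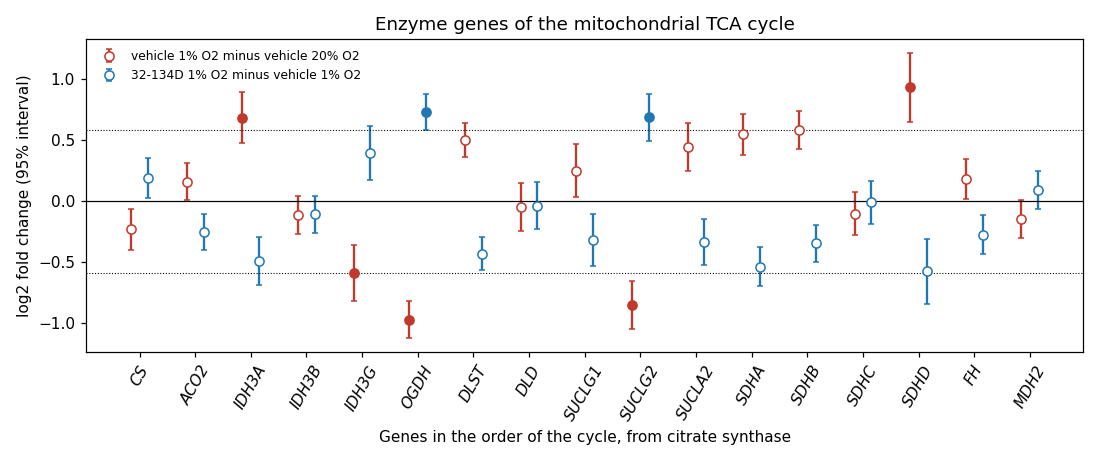
Log2 fold changes with 95% intervals of 17 mitochondrial cycle genes in the order of the reactions, in hypoxia (red) and with 32-134D in hypoxia (blue); filled circles are called, open circles are not, and dotted lines mark 1.5-fold. OGDH and SUCLG2 were called lower in hypoxia (-0.97 and -0.85) and higher with 32-134D (0.73 and 0.69). Other subunits of the OGDH complex and of succinyl-CoA synthetase were not called. Of these, DLST (0.50 and -0.43), SUCLG1 (0.25 and -0.32) and SUCLA2 (0.45 and -0.34) had the opposite signs, and DLD had -0.05 and -0.04. IDH3G was called in hypoxia (-0.59) but not with 32-134D.

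Around the cycle, 11 of 12 listed genes for entry and exit reactions were tested, and 6 passed in hypoxia, beside 39.7% of all genes. ME1, the cytosolic malic enzyme, rose by 0.89, as did the mitochondrial ME2 by 0.68. Lower were D2HGDH by 1.95, which returns D-2-hydroxyglutarate to 2-oxoglutarate, OGDHL by 1.40, a close relative of OGDH, PC by 0.80, which makes oxaloacetate from pyruvate, and FAHD1 by 0.60, an oxaloacetate decarboxylase (edgeR FDR between 1.86e-08 and 4.00e-04 for the 6). ME2 and FAHD1 lie outside the 4 largest changes and were named after their values were seen, and the ME2 call was lost with total library size (0.47), the upper quartile (0.49), 10 counts in every library (0.57) and thinning (0.56). The FAHD1 call was lost without replicate 1 of the vehicle at 20% O2 (-0.57) and without replicate 1 of the vehicle at 1% O2 (-0.55). D2HGDH measured 28.5, 31.9 and 33.0 CPM at 20% O2, 7.71, 9.10 and 7.40 CPM at 1% O2 and 22.3, 24.6 and 17.1 CPM with 32-134D. With 32-134D against vehicle at 1% O2, 3 of the 11 passed, beside 29.9% of all genes. They were D2HGDH (1.41), OGDHL (0.84) and PC (0.81), all higher (edgeR FDR at most 1.03e-04). Each was also past both thresholds without replicate 3 (1.55, 0.97 and 0.62). The list's median was -0.52 in hypoxia and -0.11 with 32-134D. Against 20% O2 only ME1 passed in this list (0.78, edgeR FDR 0.00250, 0.59 without 32-134D replicate 3), beside 3.52% of all genes. OGDHL (-0.56) and D2HGDH (-0.54) were under the fold threshold there (-0.43 and -0.42 without that library). The count was 3 without replicate 1 of the vehicle at 20% O2, beside 667 of all genes as higher and 62 as lower. It was also 3 without 32-134D replicate 2, beside 712 and 176, and 2 without 32-134D replicate 1, beside 764 and 198.

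Of 17 genes for glutamine and glutamate use and transport, 9 passed in hypoxia, 5 as higher and 4 as lower. Over all genes 39.7% passed (19.5% higher, 20.3% lower). ASNS, which uses glutamine to make asparagine, rose by 2.46, and GPT2, the mitochondrial alanine aminotransferase, rose by 1.66. GPT, the cytosolic alanine aminotransferase, fell by 2.25, and GLUD2, a glutamate dehydrogenase, fell by 1.59 (edgeR FDR at most 3.15e-06 for these 4). GLUD1 and GLUD2 are near-identical copies, so the counting could have split their reads, and both values are uncertain. The others, named after their values were seen, were the glutamine transporters SLC1A5 (1.49) and SLC38A2 (1.33) and the hexosamine enzyme GFPT1 (0.59) as higher, and CAD, of pyrimidine synthesis (-0.95), and GLUD1 (-0.76) as lower. GFPT1, at 1.51-fold, lost its call without replicate 1 of either vehicle group (0.52 in both), with DESeq2 and RLE scaling (0.54 in both), with total library size (0.38), the upper quartile (0.40), 10 counts in every library (0.48) and thinning (0.49).

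With 32-134D against vehicle at 1% O2, 7 of the 17 passed, beside 29.9% of all genes. GPT (1.47), GLUD2 (1.17) and CAD (0.94) were higher and ASNS (-1.07) was lower, with edgeR FDRs of at most 2.27e-04. GPT2 (-0.91), SLC1A5 (-0.67) and SLC38A2 (-0.63), the last 2 named after their values were seen, were also lower (edgeR FDR at most 0.00161). Without 32-134D replicate 3, GPT had 1.74, GLUD2 1.36, CAD 0.84, ASNS -1.27 and GPT2 -1.21. The calls of SLC1A5 and SLC38A2 were lost without 32-134D replicate 1 (-0.55 and -0.45) and without its replicate 2 (-0.57 and -0.52), and that of SLC38A2 also without replicate 3 of the vehicle at 1% O2 (-0.58), while without 32-134D replicate 3 they were -0.87 and -0.88. Against 20% O2, 6 of the 17 passed, beside 3.52% of all genes: ASNS (1.39), SLC1A5 (0.81), GPT2 (0.75), SLC38A2 (0.70) and SLC38A1 (0.60) as higher and GPT (-0.79) as lower. SLC38A1 was also named after its value was seen, and the GPT call (edgeR FDR 0.0497) was lost without each library of the 2 groups but 32-134D replicate 2. Without 32-134D replicate 3 this count was 2, beside 710 of all genes, with ASNS at 1.18 and SLC1A5 at 0.62. GPT2 (0.44), SLC38A2 (0.45), SLC38A1 (0.31) and GPT (-0.52) no longer passed without that library. SLC38A1 also lost its call without any 1 of the 3 vehicle libraries at 20% O2 (0.55 to 0.66). The list's median was 0.10 in hypoxia, -0.11 with 32-134D against vehicle at 1% O2 and -0.0074 against 20% O2.

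For each member the gene most like it was taken as the one, among 9878 tested genes with a mean of at least 10 CPM, whose log2 CPM had the highest Pearson r with it over the 9 libraries. The libraries fall into 3 groups of 3, so r mainly follows the group means, and it is given as a description. OGDH was matched most closely by PPIL2 (r = 0.999), IDH2 by ANGPTL8 (0.997), GLUL by C1orf115 (0.995), IDH3A by ZKSCAN5 (0.993) and FH by ACAA2 (0.987). The values were 0.958 for IDH1 and B3GALT6, 0.945 for CS and PRDM10 and 0.871 for GLS2 and WDR55.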

How the data were processed

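Total RNA from 9 Hep3B cultures, 3 in each group, was sequenced on the NovaSeq platform. The authors deposited raw counts per Ensembl gene, made by trimming with Bbduk, alignment to GRCh38 with STAR and counting with featureCounts, with FastQC for quality checks. The strand setting and tool versions were not given in the sources used here. The 9 columns were matched to samples by the names in the labels, and 0 columns were left unmapped.

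A gene was tested when its counts reached 10 in sum, in a single fit with edgeR 4.0.16 in R 4.3.3 (TMM scaling, quasi-likelihood test). Calls needed a Benjamini-Hochberg FDR below 0.05 over all genes and a fold change above 1.5. SEs were taken from the log2 fold change and its F statistic, and 95% intervals from the t distribution. Levels are TMM-scaled CPM, with exon lengths from GENCODE version 29 on the same assembly, which is an earlier release than the one counted. Promoters came from RefSeq.

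The 8 members and the gene lists were chosen with earlier results of these data known. Named were all members, listed genes called in hypoxia or with 32-134D against vehicle at 1% O2 (at most the 4 largest log2 fold changes per list and comparison), and the most alike gene of each member. The lists held 13 other cycle genes, 12 entry and exit genes, 17 glutamine genes, 5 hypoxia check genes, 7 hepatocyte markers and 7 markers of other cell types. Alternatives were DESeq2 1.42.0, other scalings, filters, fold thresholds and fits, thinning to the smallest library, the omission of each library in turn and a replicate block. Replicate pairs differed by more than counting error (chi-square per degree of freedom 1.52 to 29.7), so none was counted as a duplicate. P-values measure the spread between cultures of 1 line. The labels name no batch. Some planned ratios and a listed gene are not reported here.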

Additional observations from a re-analysis of the deposited data

How the results depend on the processing

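The calls of OGDH and IDH2 with 32-134D against vehicle at 1% O2, and of OGDH in hypoxia, were kept in every alternative but a fold threshold of 2, under which 0 members were called in all comparisons. Of the alternative values of the members, 377 kept their direction and side of the thresholds, 16 no longer passed, 6 newly passed and 9 changed sign. The ratios kept their sign in 119 of 120 cases. The members called in hypoxia were 1 in place of 3 with total library size, the upper quartile and 10 counts in every library. DESeq2 called 2, and each share was below that of all genes. With a library left out, 2 to 3 were called, beside 7859 to 8723 of all genes. With total library size the median log2 fold change of all genes was -0.21 in hypoxia in place of 0.00, and 0.17 with 32-134D against vehicle at 1% O2 in place of -0.01 (upper quartile -0.19 and 0.11), and the share of hypoxia calls that were higher fell from 49.0% to 34.5% (35.7% with the upper quartile), while with the compound it rose from 54.2% to 72.0% (66.1%). Against 20% O2 that share went from 85.3% to 68.4% with the upper quartile.

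Without a fold threshold, 5 members passed in hypoxia, 5 with 32-134D against vehicle at 1% O2 and 1 against 20% O2. All genes then gave 12132 calls in hypoxia, 10761 in the second comparison and 2324 in the third. The other cycle genes gave 7 in hypoxia and 9 in the second, and the entry and exit genes 9 in the second and 4 in the third. With a fold above 2, all genes gave 5735, 3639 and 304 calls in the 3 comparisons, the other cycle genes 0 in hypoxia and 0 in the second, the entry and exit genes 2, 1 and 0, and the glutamine genes 3 in the second and 1 in the third. Of the lists, the other cycle genes called with 32-134D against vehicle at 1% O2 were 2 when libraries were thinned, beside 2942 of all 18140 genes as higher and 2048 as lower. They were 1 to 2 when a library was left out, beside 6063 to 6855 of all genes. Against 20% O2, the entry and exit genes called were 2 with total library size, beside 617 of all genes as higher and 152 as lower. They were 3 with the upper quartile, beside 534 and 247, and 2 when thinned, beside 581 and 134 of 18140. With a library left out they were 1 to 3 and the glutamine genes 2 to 6, beside 568 to 962 of all genes. Among single listed genes, the hypoxia calls of IDH3G (-0.56) and FAHD1 (-0.57) were lost with no filter beyond 1 count, and that of IDH3G in a fit of the 2 groups alone (-0.58). With 32-134D against vehicle at 1% O2, SLC1A5 and SLC38A2 lost theirs with total library size (-0.49 and -0.44), the upper quartile (-0.55 and -0.51), 10 counts in every library (-0.58 and -0.54) and thinning (-0.58 and -0.53), and SLC38A2 also with DESeq2, RLE scaling and the 2 groups alone (-0.57 in each). Against 20% O2, GPT lost its call with RLE scaling (-0.78), 10 counts in every library (-0.80), the 2 groups alone (-0.79) and thinning (-0.76), and SLC38A1 with total library size (0.58), the upper quartile (0.53), the 2 groups alone (0.60) and the replicate block (0.58). The cause of these changes was not tested.

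The sign changes were of differences that did not pass the test. FH in hypoxia became -0.030 with total library size and -0.0087 with the upper quartile. GLS2 in hypoxia became 0.16 when thinned, 0.022 without replicate 2 of the vehicle at 20% O2 and 0.0029 without replicate 3 of the vehicle at 1% O2, and against 20% O2 with 32-134D it became 0.061 when thinned. When a library was left out, GLS2 in hypoxia ran from -0.164 to 0.022. IDH1 with 32-134D against 20% O2 became -0.026 with the upper quartile and -0.0076 without 32-134D replicate 3 (-0.0076 to 0.083 over the libraries left out), and GLUL 0.059 without that library (-0.19 to 0.059). Among the ratios against 20% O2, FH to CS became 0.035 without replicate 1 of the vehicle at 20% O2 (-0.13 to 0.035 over the libraries left out).

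With the replicate number of the labels as a replicate block, 3, 2 and 0 members were called in the 3 comparisons, and 8671, 6486 and 785 of all genes in place of 9007, 6775 and 798. Same-numbered libraries did not deviate together (correlations of -0.03 to 0.01), and 0 of 9 libraries correlated best with its own number.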
